A study of Mus musculus with 10 samples.

Results

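The genes described here belong to families that handle zinc, and they were read in the hippocampus. They are 3 metallothionein genes (Mt1, Mt2 and Mt3), 3 genes of the Slc30 family of exporters (Slc30a1, Slc30a3 and Slc30a10) and 2 importer genes of the Slc39 family (Slc39a8 and Slc39a14). They were chosen by name, as 8 of the 24391 gene names in the count tables, and all 8 passed the filter on low counts. RNA sequencing was made from the whole hippocampus of both sides, with 1 library per mouse. The groups were SAH mice, with subarachnoid hemorrhage by perforation of the Circle of Willis on 1 side with a filament (n = 4, numbered 1 to 4), Sham mice, operated on with the filament but with the vessel left intact (n = 3, numbered 5 to 7), Naive mice, for which no surgery is described (n = 3, numbered 8 to 10), and the Sham and Naive mice pooled as control (n = 6). SAH and Sham tissue was taken on day 4 after surgery. All mice were male adult mice (C56BL/6J, as the study's methods print the strain) without transgene, and no drug was given as a treatment. Surgery was done under isoflurane anesthesia, which is not described for the Naive mice. The tissue of both sides was joined, so the perforated side cannot be told apart from the other.

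Metallothioneins are small cysteine-rich proteins that bind zinc and copper and buffer their free level. Mt1 and Mt2 are made in most tissues, in the brain mainly in astrocytes, and their transcription is switched on by zinc through the sensor MTF1 at metal response elements, and also by glucocorticoids and by STAT3 signalling. Mt3 is the metallothionein of the brain, abundant in the hippocampus. Slc30 proteins (ZnT) move zinc out of the cytosol, across the cell membrane or into vesicles, and Slc39 proteins (ZIP) move it in. The hippocampus holds vesicular zinc in the mossy fibre terminals of its granule cells, which is loaded by the Slc30a3 protein.

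The promoters of the metallothioneins and of Slc30a1 are shown first, because Mt1, Mt2 and Slc30a1 are known targets of MTF1 and had their highest level in the same mouse, as did Mt3, Slc39a8 and Slc39a14. They are RefSeq windows on GRCm38.p6, from 250 bases before to 50 bases after the gene start, on the strand of the gene and 5′ to 3′. Capitals mark each match to the core of the metal response element, searched as TGCACNC or TGCGCNC on either strand. Mt1 (chr8:94178839-94179138), Mt2 (chr8:94172368-94172667), Mt3 (chr8:94152357-94152656) and Slc30a1 (chr1:191906531-191906830) all lie on the plus strand.
Mt1: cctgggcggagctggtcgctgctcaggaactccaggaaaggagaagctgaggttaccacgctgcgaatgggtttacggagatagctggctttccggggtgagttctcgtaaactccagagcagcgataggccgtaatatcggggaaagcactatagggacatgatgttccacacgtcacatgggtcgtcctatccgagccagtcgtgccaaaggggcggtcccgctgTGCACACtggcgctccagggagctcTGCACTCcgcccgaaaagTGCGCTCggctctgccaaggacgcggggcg
Mt2: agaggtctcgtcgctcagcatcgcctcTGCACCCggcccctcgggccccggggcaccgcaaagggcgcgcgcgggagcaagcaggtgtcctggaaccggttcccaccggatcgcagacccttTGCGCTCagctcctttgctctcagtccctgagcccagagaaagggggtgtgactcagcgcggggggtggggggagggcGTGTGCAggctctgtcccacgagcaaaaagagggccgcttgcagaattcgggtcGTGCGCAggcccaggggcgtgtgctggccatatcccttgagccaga
Mt3: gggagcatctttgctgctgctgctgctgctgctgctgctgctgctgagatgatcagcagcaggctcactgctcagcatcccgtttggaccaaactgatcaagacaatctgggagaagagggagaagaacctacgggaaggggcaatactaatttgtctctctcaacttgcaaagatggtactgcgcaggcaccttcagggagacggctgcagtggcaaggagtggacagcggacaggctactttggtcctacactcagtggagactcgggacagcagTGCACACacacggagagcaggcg
Slc30a1: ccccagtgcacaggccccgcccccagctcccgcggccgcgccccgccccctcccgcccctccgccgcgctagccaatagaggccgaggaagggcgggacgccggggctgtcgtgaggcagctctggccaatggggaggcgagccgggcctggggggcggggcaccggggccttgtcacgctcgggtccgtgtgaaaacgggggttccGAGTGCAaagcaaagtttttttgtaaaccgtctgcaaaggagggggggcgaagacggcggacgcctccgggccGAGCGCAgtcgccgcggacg

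The Mt2 window held 4 cores, the Mt1 window 3, the Slc30a1 window 2 and the Mt3 window 1. Of 32851 mouse promoter windows of the same length, 25.7% held at least 1 core, 7.11% at least 2, 1.97% at least 3 and 0.517% at least 4. The Mt1 cores lay between 23 bases before and 21 bases after the start, whereas those of Mt2 began 223, 128 and 50 bases before and 5 bases after it. The single Mt3 core lay 28 bases after the start. The Slc30a10 window held 3 cores, 2 of which overlap each other. Of the 2 windows of Slc30a3, 1 held a core, and the same was found for Slc39a8. A STAT site core (TTCNNNGAA) was found in 0 of the 9 windows, against 8.3% of all windows. An antioxidant response element core (TGACNNNGC, either strand) was found once each for Mt2, Slc30a1 and Slc39a8, against 12.4% of all windows. A promoter was present in the table for 7 of the 8 genes. Such a match is a description of letters, and binding was not measured.

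Between 19743388 and 27254655 counts per mouse were available. Some libraries stood apart over all genes. SAH mouse 3 had the highest CPM (counts relative to the library total, scaled by TMM) of the 10 mice for 24.8% of 14993 tested genes, against 4.45% to 14.0% for each of the other mice. Its depth was 20099076 counts and its scaling factor was 0.985. Markers of the choroid plexus epithelium summed to 1283 CPM in SAH mouse 3, 894 in SAH mouse 4 and 859 in Sham mouse 7, and to between 52.5 and 229 CPM in the other 7 mice. Markers of glutamatergic neurons, which define the tissue, summed to between 8107 and 9193 CPM in all 10 mice. In bulk tissue, fewer cells of a type and less RNA per cell cannot be told apart.

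Of the 8 zinc genes, 1 changed after SAH. The importer Slc39a8 was higher in SAH than in control mice, by 0.57 on the log2 scale, and none of the 8 was lower at an adjusted p of 0.10 (edgeR quasi-likelihood test, Benjamini-Hochberg adjustment over all genes). Among all 14993 genes tested 3.13% were called higher, 1.54% lower and 4.68% in either direction, and 1 of 8 is too small a count to set against these shares. The other 7 had log2 fold changes from -0.10 to 0.31 and adjusted p-values from 0.162 to 0.981 (edgeR). An unadjusted p under 0.05 was reached by 2 of the 8 (Slc39a8 and Slc30a3), against 17.0% of all genes. The median log2 fold change of the 8 genes was 0.13, and that of all tested genes was -0.0024. Without SAH mouse 3, 0 of the 8 were called, against 3.77% of 15119 genes, and their median was -0.025. DESeq2 called 1, which was Slc39a8 again.

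**Figure D1:**
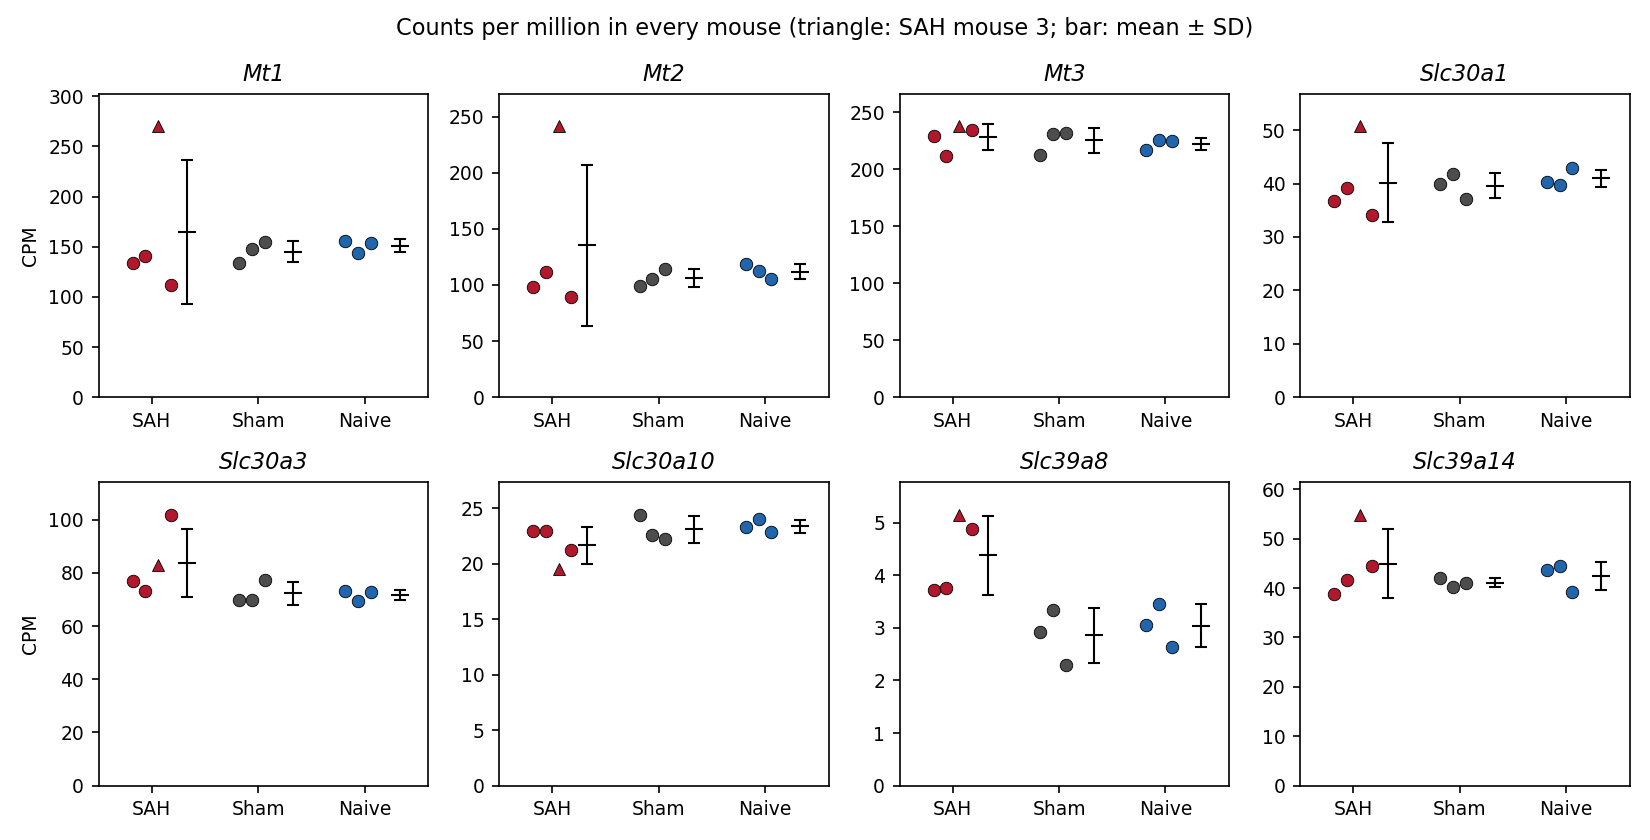
CPM of each of the 8 genes (vertical axis, starting at 0) in every mouse of the SAH, Sham and Naive groups, with each point 1 mouse, the triangle SAH mouse 3 and the bar the mean ± SD of the group. The triangle is far above every other mouse for Mt1 (270.3 CPM) and Mt2 (242 CPM), and Slc39a8 is the panel in which no SAH mouse overlaps a Sham or Naive mouse.

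Mt1, which encodes the first inducible metallothionein, is annotated on chromosome 8 from 96702989 to 96704227 (mm9, 3 exons). Its level was 133, 141, 270.3 and 112 CPM in SAH mice 1 to 4. In the Sham mice it was 133, 147 and 155 CPM, and in the Naive mice 156, 144 and 154 CPM. SAH mouse 3 was the highest of all 10 mice and SAH mouse 4 the lowest, so that the SAH group enclosed the control group. The mean was 164 ± 71.8 CPM in SAH (SD, n = 4) and 148 ± 8.57 CPM in control mice (SD, n = 6). The log2 fold change was 0.15 with a standard error of 0.18 and an adjusted p of 0.714 (edgeR). The sign turned when SAH mouse 3 was left out. The value was then -0.20 with a standard error of 0.067, and its unadjusted p of 0.0098 became 0.172 after adjustment (edgeR), where adjusted p-values over all alternatives ran from 0.172 to 0.881.

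Mt2, its neighbour on chromosome 8 (96696518 to 96697467, mm9, 3 exons), encodes the second inducible metallothionein. It had 98.4, 111, 242 and 89.4 CPM in SAH mice 1 to 4. The Sham mice had 98.7, 105 and 114 CPM and the Naive mice 118, 112 and 105 CPM. As for Mt1, SAH mouse 3 was the highest and SAH mouse 4 the lowest of the 10. SAH mouse 3 was at 2.21 times the control mean for Mt2 and at 1.82 times for Mt1, whereas the mean of the other 3 SAH mice was at 0.914 times for Mt2 and 0.870 times for Mt1. The fitted log2 fold change of Mt2 was 0.31 (SE 0.21, edgeR adjusted p = 0.497). Leaving out SAH mouse 3 gave -0.13 (SE 0.066, edgeR adjusted p = 0.448), with adjusted p-values from 0.305 to 0.810 over all alternatives.

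Both inducible metallothioneins spread far more among SAH mice than among control mice. The SD of log2 CPM was 0.56 in SAH and 0.085 in control mice for Mt1, a ratio of 6.505, and 0.65 against 0.096 for Mt2, a ratio of 6.83. A ratio at least as large was found for 0.620% and 0.487% of all tested genes, and the median ratio over all genes was 1.37. Without SAH mouse 3, the SD among the SAH mice was 0.17 for Mt1 and 0.16 for Mt2. These ratios are descriptions and were not tested.

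Mt3, the brain metallothionein (chromosome 8, 96676507 to 96678048, mm9, 3 exons), differed little between mice. SAH mice had 229, 212, 238 and 235 CPM. Sham mice had 213, 231 and 232 CPM, and Naive mice 217, 226 and 225 CPM. The range over all 10 mice was 212 to 238 CPM. SAH mice 3 and 4 were just above and SAH mouse 2 just below all control mice, so that the groups overlapped. The fitted log2 fold change was 0.029 with a standard error of 0.041 (edgeR adjusted p = 0.751). In SAH mouse 3, where Mt2 was at 2.21 times the control mean, Mt3 was at 1.06 times.

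Ratios of counts within a library do not depend on the scaling between libraries. The ratio of Mt2 to Mt1 counts was 0.738, 0.789, 0.894 and 0.797 in SAH mice 1 to 4. In Sham mice it was 0.740, 0.716 and 0.740, and in Naive mice 0.761, 0.778 and 0.685. All SAH mice but mouse 1 were above every control mouse. The mean log2 ratio was -0.32 ± 0.11 in SAH (SD, n = 4) and -0.44 ± 0.065 in control mice (SD, n = 6), a difference of 0.13 (2-sided exact permutation test over 210 splits, p = 0.0476, adjusted over 3 ratios 0.0714). This difference was past the threshold of 0.10 in 4 of 13 alternatives, and without SAH mouse 3 it was 0.073 (exact permutation test, adjusted p = 0.214).

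The ratio of Mt2 to Mt3 separated SAH mouse 3 from all others. It was 1.01 in that mouse, 0.429, 0.525 and 0.380 in the other SAH mice, and between 0.456 and 0.547 in the 6 control mice. The log2 difference between the groups was 0.16 (exact permutation test, p = 0.7095, adjusted 0.7095). It was -0.14 when SAH mouse 3 was left out (exact permutation test, adjusted p = 0.214).

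**Figure D2:**
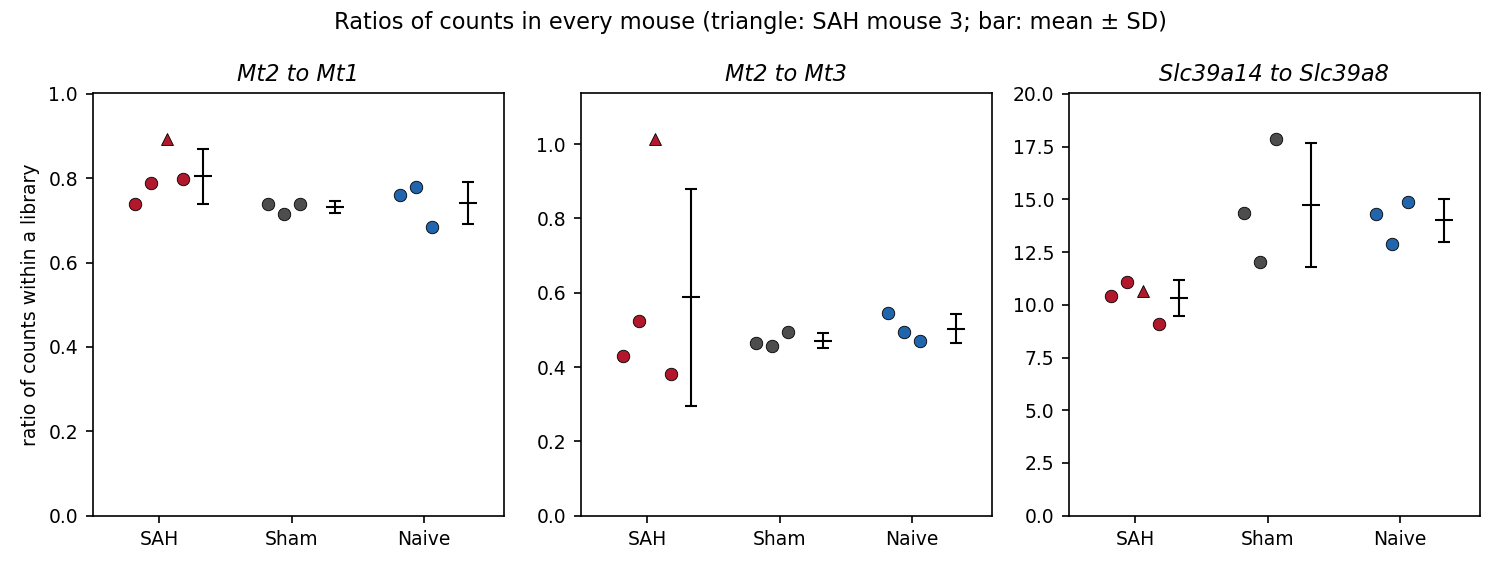
Ratio of counts within each library (vertical axis, starting at 0) for Mt2 to Mt1, Mt2 to Mt3 and Slc39a14 to Slc39a8 in every mouse, with the triangle SAH mouse 3 and the bar the mean ± SD of the group. The ratio of Mt2 to Mt3 is 1.01 in SAH mouse 3 and at most 0.547 in the other mice, and the ratio of Slc39a14 to Slc39a8 is at most 11.1 in SAH mice and at least 12.04 in control mice.

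Slc30a1 encodes the exporter of the cell membrane, which MTF1 induces together with the metallothioneins (chromosome 1, 193730660 to 193737126, mm9, 2 exons). It had 36.8, 39.1, 50.8 and 34.1 CPM in SAH mice, 39.9, 41.8 and 37.1 CPM in Sham mice and 40.3, 39.8 and 42.8 CPM in Naive mice. SAH mouse 3 was again the highest and SAH mouse 4 the lowest. The group means of 40.2 ± 7.36 CPM (SD, n = 4) and 40.3 ± 1.97 CPM (SD, n = 6) gave a log2 fold change of -0.0066 (SE 0.090, edgeR adjusted p = 0.981). Its sign was not stable, since it turned in 6 of 19 alternatives. Leaving out SAH mouse 3 gave -0.13 (SE 0.057), with an unadjusted p of 0.035 and an adjusted p of 0.324 (edgeR), where adjusted p-values over all alternatives ran from 0.324 to 0.991.

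Slc30a3 encodes the transporter that loads synaptic vesicles with zinc (chromosome 5, 31388479 to 31395900, minus strand, mm9, 8 exons). SAH mice had 76.8, 73.3, 82.8 and 102 CPM. The Sham values were 70.0, 69.7 and 77.3 CPM and the Naive values 73.1, 69.6 and 72.7 CPM. In SAH mice 3 and 4 the level was above every control mouse, and in SAH mice 1 and 2 it was within their range. The log2 fold change of 0.22 (SE 0.076) had an unadjusted p of 0.013 and did not pass the threshold (edgeR adjusted p = 0.162). It depended on single mice. With SAH mouse 2 left out it was 0.28 and passed (edgeR adjusted p = 0.0610), and with SAH mouse 4 left out it was 0.11, with adjusted p-values from 0.0610 to 0.684 over all alternatives. Markers of dentate granule neurons, the cells whose terminals hold vesicular zinc, summed to between 464 and 559 CPM in SAH and between 380 and 501 CPM in control mice. Of these 7 markers, 1 was called higher (C1ql2, log2 fold change 0.34, edgeR adjusted p = 0.0727). Over all genes 3.13% were called higher, and 1 of 7 is too small a count to set against this share. Without SAH mouse 3, and against Sham or Naive mice alone, 0 of 7 were called (edgeR), and their part in the values of Slc30a3 was not tested.

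Slc30a10 encodes an exporter of the Slc30 family that carries manganese (chromosome 1, 187278727 to 187292640, mm9, 4 exons). It was the only one of the 8 with its lowest level in SAH mouse 3. SAH mice had 23.0, 22.9, 19.5 and 21.2 CPM, Sham mice 24.4, 22.6 and 22.2 CPM, and Naive mice 23.3, 24.0 and 22.8 CPM. SAH mice 3 and 4 were below all control mice. The log2 fold change was -0.10 (SE 0.059, edgeR adjusted p = 0.421), and it was negative in all 19 alternatives, from -0.13 to -0.051.

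Slc39a8 encodes an importer of zinc, manganese and other divalent metals (chromosome 3, 135488243 to 135551536, mm9, 10 exons). SAH mice had 3.72, 3.75, 5.15 and 4.88 CPM. The level was 2.93, 3.35 and 2.29 CPM in Sham mice and 3.05, 3.45 and 2.63 CPM in Naive mice. All 4 SAH mice were above all 6 control mice, which held for 2.83% of all tested genes, and for no other of the 8. This is the least abundant of the 8 genes, with 77 to 122 counts per SAH mouse and 57 to 91 per control mouse. The mean was 4.38 ± 0.746 CPM in SAH (SD, n = 4) and 2.95 ± 0.435 CPM in control mice (SD, n = 6), or 1.48-fold by the fit. Its log2 fold change was 0.57 with a standard error of 0.14 (edgeR adjusted p = 0.0564, DESeq2 adjusted p = 0.0163).

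The rise of Slc39a8 kept its direction in all 19 alternatives, from 0.49 to 0.64, but passed the threshold in 12 of them, with adjusted p-values from 0.0163 to 0.399. It was lost without SAH mouse 3 (0.49, edgeR adjusted p = 0.127) and without SAH mouse 4 (0.51, edgeR adjusted p = 0.173). It was also lost without Sham mouse 5, Naive mouse 8 or Naive mouse 10, with edgeR adjusted p-values of 0.101, 0.112 and 0.122. Markers of endothelial cells were also read. Their sum was within the control range in SAH mouse 1 and highest in SAH mouse 4, whereas Slc39a8 was highest in SAH mouse 3. They summed to 142, 178, 217 and 271 CPM in SAH mice 1 to 4 and to between 128 and 173 CPM in control mice, and 3 of the 9 were called higher (Cdh5, Pecam1 and Flt1; DESeq2 called 2). With SAH mouse 3 left out the 3 called higher were Cdh5, Pecam1 and Tek (beside 416 of all 15119 genes). Against Sham mice alone 1 of 9 was called, and against Naive mice alone 1 of 9 (edgeR). Of the meningeal fibroblast markers, 8 of 9 were called higher (3 of 9 against Sham and 8 of 9 against Naive mice alone). Their sums were 376, 350, 194 and 266 CPM in SAH mice 1 to 4 and 142 to 187 CPM in control mice. The lowest of these SAH sums was in SAH mouse 3, which had the highest Slc39a8. Over all genes 3.13% were called higher than in control mice, 0.529% against Sham and 2.03% against Naive mice alone. Astrocyte markers were called in 0 of 10 (DESeq2 called 1, and 3 had an unadjusted p under 0.05), and summed to between 5991 and 6862 CPM in SAH and 6159 and 6617 CPM in control mice. Oligodendrocyte markers were called lower in 7 of 7 (beside 1.54% of all genes), with a median log2 fold change of -0.56. Their sums were 2580 to 3320 CPM in SAH and 3785 to 5127 CPM in control mice. The choroid plexus sum was highest in SAH mouse 3 and SAH mouse 4, which also had the highest Slc39a8, and it was high in Sham mouse 7, which had the lowest. The part of each of these marker lists in the rise of Slc39a8 was not tested.

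Slc39a14 encodes the importer most like Slc39a8 in what it carries, and in the liver it is induced in the acute phase response (chromosome 14, 70703274 to 70751231, minus strand, mm9, 12 exons). It had 38.8, 41.6, 54.9 and 44.4 CPM in SAH mice, 42.0, 40.3 and 41.0 CPM in Sham mice and 43.6, 44.4 and 39.1 CPM in Naive mice. SAH mouse 3 was the highest and SAH mouse 1 the lowest of the 10. The log2 fold change was 0.11 (SE 0.080, edgeR adjusted p = 0.530), and 0.00084 without SAH mouse 3.

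The 2 importers therefore differed within a library. Counts of Slc39a14 were 10.4, 11.1, 10.6 and 9.11 times those of Slc39a8 in SAH mice 1 to 4. In the Sham mice this ratio was 14.3, 12.04 and 17.9, and in the Naive mice 14.3, 12.9 and 14.9, so the groups did not overlap. The mean log2 ratio was 3.36 ± 0.12 in SAH (SD, n = 4) and 3.83 ± 0.20 in control mice (SD, n = 6). The difference of -0.47 passed the exact permutation test (p = 0.00952, adjusted over 3 ratios 0.0286) and did so in all 13 alternatives, with adjusted p-values from 0.0179 to 0.0857. This adjustment is over 3 ratios and not over all genes. The ratio uses the same Slc39a8 counts, so it is not separate support for the rise of Slc39a8. Since the groups did not overlap, leaving out mice kept p at or near its smallest possible value, and passing in all 13 adds little.

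**Figure D3:**
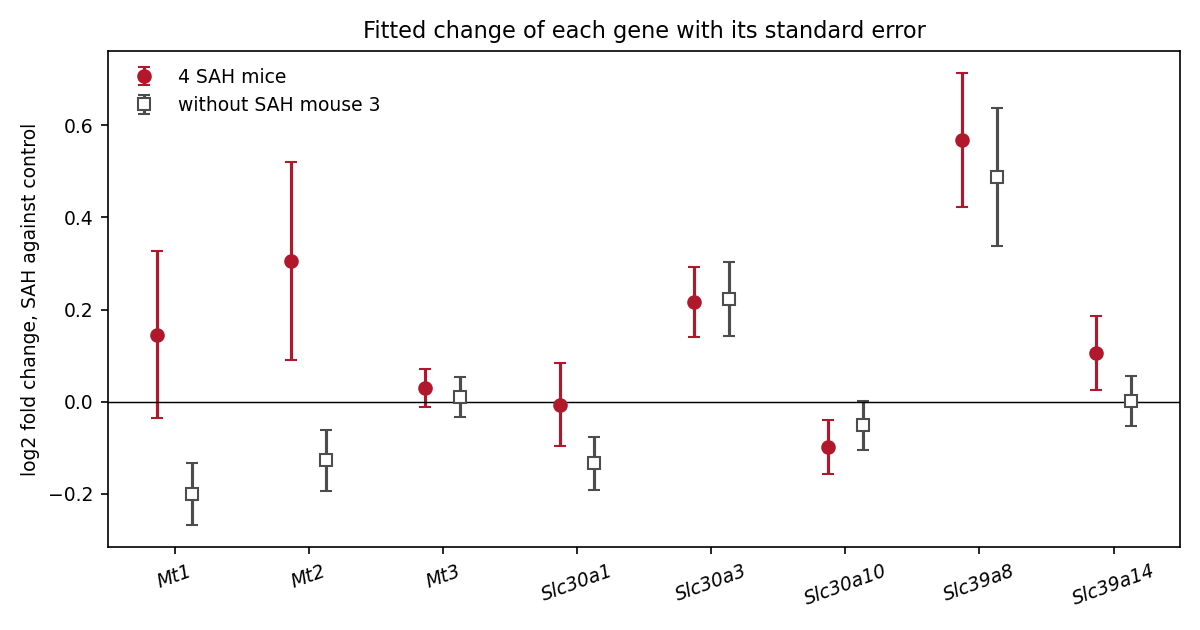
Fitted log2 fold change, SAH against control (vertical axis), of each of the 8 genes with its standard error, from all 4 SAH mice (filled circles) and without SAH mouse 3 (open squares). Mt1 moves from 0.15 to -0.20 and Mt2 from 0.31 to -0.13, whereas Slc39a8 stays above zero at 0.57 and 0.49.

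The Sham and the Naive mice overlapped for all 8 genes. Between them, 0 of the 8 were called (edgeR; 0 with an unadjusted p under 0.05, and 0 by DESeq2), with log2 fold changes from -0.083 to 0.019, and over all genes 0.00661% were called. Against the Sham mice alone 0 of the 8 were called, against 0.72% of 15134 genes, and against the Naive mice alone 0, against 2.99%. DESeq2 called 0 in each, and an unadjusted p under 0.05 was found for 2 in each (edgeR), for Slc30a3 and Slc39a8. Slc39a8 was 0.61 higher on the log2 scale against Sham (edgeR adjusted p = 0.231) and 0.53 higher against Naive mice (edgeR adjusted p = 0.189). Slc30a3 was 0.21 and 0.22 higher, with edgeR adjusted p-values of 0.494 and 0.295. The 3 comparisons share mice and are not independent.

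Levels between genes can be compared per length of transcript. In control mice the order was Mt3 with 416 ± 14.4 CPM per kilobase (SD, n = 6), Mt1 with 273 ± 15.8, Mt2 with 196 ± 12.96, Slc30a3 with 36.0 ± 1.498, Slc39a14 with 8.01 ± 0.384, Slc30a1 with 7.70 ± 0.378, Slc30a10 with 3.98 ± 0.146 and Slc39a8 with 0.752 ± 0.111. Neighbours in this order were farther apart than their spread, except Slc39a14 and Slc30a1. SAH mice kept the same order of means. Reads that matched several places were left out by the authors, so reads common to Mt1 and Mt2, if any, are in neither level.

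No other gene of the zinc families passed the threshold in edgeR. Of 20 other metallothionein, Slc30 and Slc39 genes, 16 were tested and 0 were called (edgeR; 1 had an unadjusted p under 0.05, and DESeq2 called 1, in each case Slc39a3). Their log2 fold changes ran from -0.20 to 0.21 with a median of 0.027, which was -0.0012 without SAH mouse 3, and 10 of the 16 were positive. Slc39a3, an importer of the cell membrane, had 82.2, 81.3, 72.7 and 81.4 CPM in SAH mice. Its control values were 88.1, 83.2 and 86.6 CPM in Sham and 86.9, 87.4 and 88.4 CPM in Naive mice, so that all SAH mice were below all control mice, as for 2.37% of all tested genes. Its log2 fold change was -0.13 (SE 0.042, edgeR adjusted p = 0.138, DESeq2 adjusted p = 0.0913), and -0.086 without SAH mouse 3 (edgeR adjusted p = 0.289). Mt4, Slc30a2, Slc30a8 and Slc39a5 were not tested. Mt4 had at most 2 counts in a mouse, Slc30a2 at most 2, Slc30a8 at most 3 and Slc39a5 at most 9. Counts of 3 or fewer cannot be told from 0 at this depth.

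**Figure D4:**
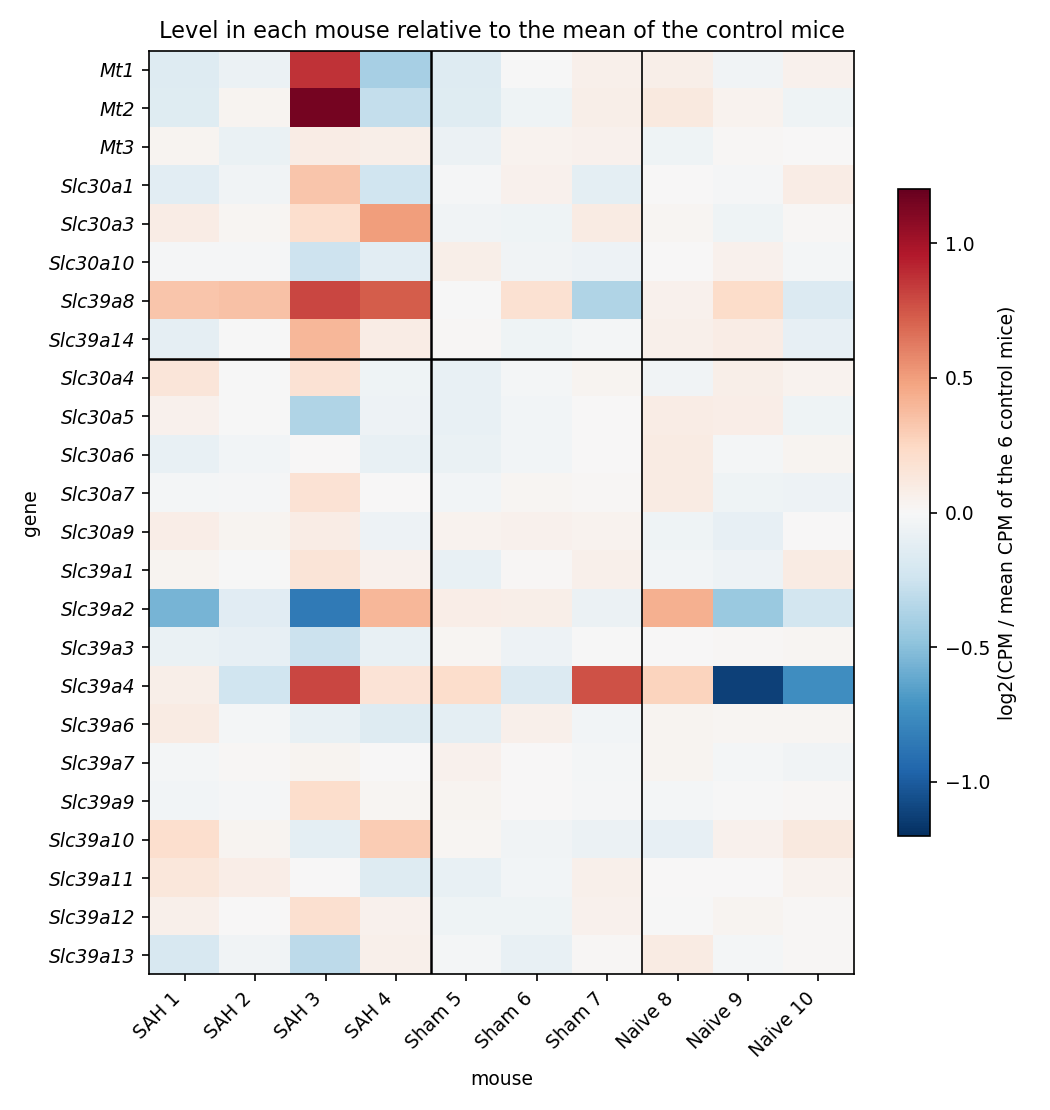
Log2 of the CPM in each mouse (columns) over the mean CPM of the 6 control mice, for the 8 genes (above the horizontal line) and the 16 tested other genes of the zinc families (below it), with red higher and blue lower. SAH mouse 3 is red for Mt1 and Mt2 (log2 of 0.87 and 1.15), and the Slc39a8 row is red in all 4 SAH mice.

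Genes of neighbouring metals were read from the same fit. Beside 3.13% of all genes called higher, single calls in lists of this size are counts too small to compare. Of 10 copper genes, 1 was called higher. This was Cp, which encodes ceruloplasmin, the ferroxidase of blood plasma and astrocytes, with 25.0 to 32.8 CPM in SAH and 13.4 to 18.7 CPM in control mice (log2 fold change 0.86, SE 0.10, edgeR adjusted p = 0.00096). Of 12 tested iron and manganese genes, 1 was called, the ferritin light chain gene Ftl1, with 141 to 160 CPM in SAH and 131 to 140.3 CPM in control mice (0.16, SE 0.040, edgeR adjusted p = 0.0528). Of 8 metal sensor and metal response genes, 1 was called. This was Hmox1, encoding the heme oxygenase that frees iron from heme, with 8.37, 6.84, 13.7 and 8.99 CPM in SAH mice 1 to 4 and 4.82 to 6.40 CPM in control mice (0.79, SE 0.16, edgeR adjusted p = 0.0191). Mtf1, which encodes the zinc sensor itself, had 30.3 to 36.6 CPM in SAH and 32.8 to 42.6 CPM in control mice (log2 fold change -0.16, SE 0.075, edgeR adjusted p = 0.310), and its level was lowest in SAH mouse 3. Median log2 fold changes of the 3 lists were 0.080, 0.063 and 0.022, and 0.081, 0.030 and -0.0065 without SAH mouse 3. With SAH mouse 3 left out, Cp (0.84) and Hmox1 (0.56) stayed past the threshold, Ftl1 (0.14, edgeR adjusted p = 0.110) did not, and Slc7a11 of the metal response list, which encodes a cystine transporter, was called as well (0.45, edgeR adjusted p = 0.00107). Against Sham mice alone Cp was called (0.71, edgeR adjusted p = 0.0127), and Hmox1 (0.79, edgeR adjusted p = 0.147) and Ftl1 (0.14, edgeR adjusted p = 0.347) did not pass. Against Naive mice alone all 3 were called, with edgeR adjusted p-values of 0.00038 for Cp, 0.0852 for Hmox1 and 0.0989 for Ftl1.

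The last lists hold genes that respond to the other inducers of metallothioneins. The list of 12 STAT3 and acute phase genes includes Timp1, which passed the low-count filter in the pairwise comparisons but not in SAH against control. Of the 11 tested there, 4 were called higher (beside 3.13% of all genes), with a median log2 fold change of 0.70. These were the astrocyte filament gene Gfap (1.00, edgeR adjusted p = 0.00535), Lcn2 (3.74, edgeR adjusted p = 0.0150), the oncostatin M receptor gene Osmr (0.89, edgeR adjusted p = 0.0184) and Serpina3n (0.70, edgeR adjusted p = 0.0475). When SAH mouse 3 was left out, 5 of 11 were called higher (beside 416 of all 15119 genes), with a median of 0.40. Against the Sham mice alone 1 of 12 tested STAT3 and acute phase genes was called (0.529% of all genes higher), and against the Naive mice alone 3 of 12 (2.03%), both by edgeR. DESeq2, run without this filter, called 6 against control, 4 against Sham and 4 against Naive mice. An unadjusted p under 0.05 was reached by 9, 6 and 7 (edgeR). Of 12 glucocorticoid response genes, 2 were called higher (beside 3.13% of all genes), the lipid droplet gene Plin4 (3.33, edgeR adjusted p = 0.0469) and the sulfotransferase gene Sult1a1 (1.07, edgeR adjusted p = 0.0718), with a list median of 0.25. Against the Sham mice alone and against the Naive mice alone 0 of 12 were called (edgeR; 4 and 2 had an unadjusted p under 0.05, and DESeq2 called 0 and 1). When SAH mouse 3 was left out, 1 of 12 was called higher (beside 416 of all 15119 genes), Sult1a1, and the median was -0.026.

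SAH mouse 3, in which Mt1 and Mt2 were high, was also the mouse in which most genes of these 2 lists were highest. It was the highest of the 10 mice for 11 of 12 glucocorticoid genes, all but Nr3c1, and for 9 of 11 STAT3 and acute phase genes, all but Il6st and Cebpb. The count was 6 of 8 for the zinc genes described here, 7 of 16 for their relatives, 4 of 8 for metal response genes, 7 of 12 for iron and manganese genes and 2 of 10 for copper genes, beside 24.8% of all tested genes. Plin4 reached 24.5 CPM in SAH mouse 3, whereas SAH mice 1, 2 and 4 had 0.870, 0.993 and 3.56 CPM and control mice 0.489 to 1.01 CPM. Lcn2 was at 4.60 CPM there. Its values in SAH mice 1, 2 and 4 (0.6253 to 1.02 CPM) were lower but still above those of control mice, which had up to 0.362 CPM. Mt1 and Mt2 in those 3 SAH mice were at or below the control mean, apart from 111 CPM of Mt2 in SAH mouse 2. The sum of astrocyte markers was also highest in SAH mouse 3, with 6862 CPM against 5991 to 6617 CPM in the other mice. The part of glucocorticoids, of STAT3 signalling, of the astrocyte sum and of the choroid plexus sum in the level of Mt1 and Mt2 was not tested. Sham mouse 7, with a choroid plexus sum of 859 CPM, had 155 CPM of Mt1 and 114 CPM of Mt2, and SAH mouse 4, with 894 CPM, had the lowest Mt1 and Mt2 of all mice.

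**Figure D5:**
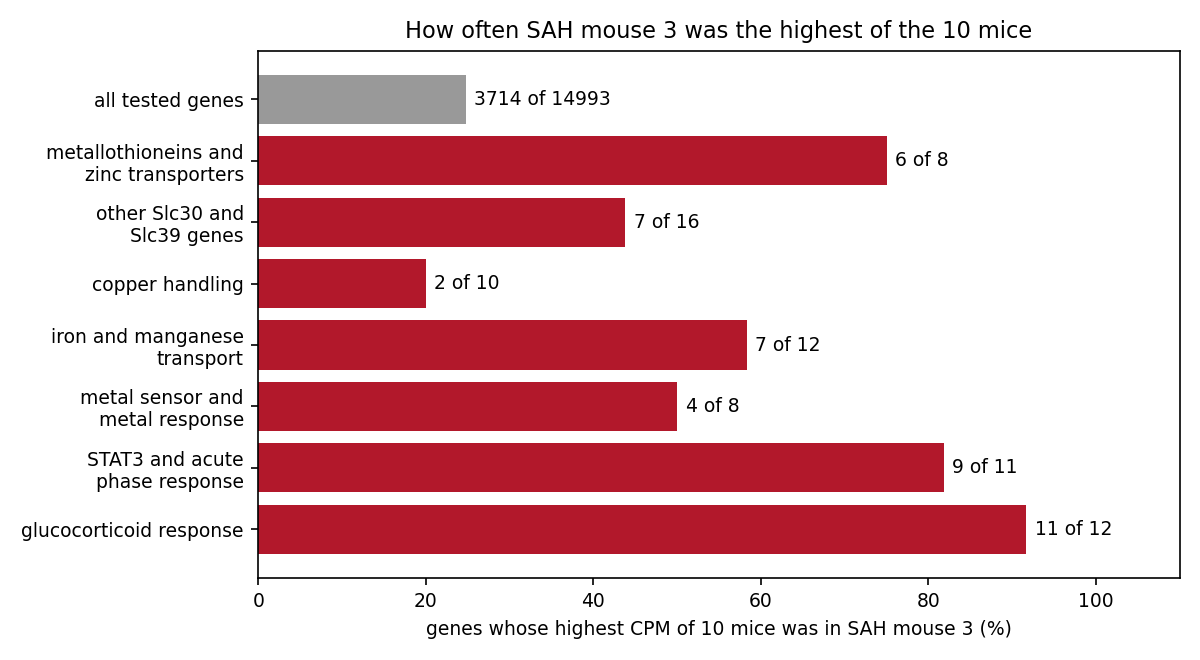
Percentage of the genes of each list (horizontal axis, from 0) whose highest CPM of the 10 mice was in SAH mouse 3, with the count beside each bar and all tested genes in grey. The share is 24.8% over all genes, 6 of 8 for the zinc genes and 11 of 12 for the glucocorticoid list.

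The genes whose log2 CPM followed that of each zinc gene most closely were ranked by Pearson's r over the 10 mice, among 13813 genes with a mean of at least 1 CPM. All values are descriptions, since the highest of so many were taken. For Mt1 they were Mt2 (r = 0.98, Spearman's rho = 0.89), Rhou (0.97) and Pop4 (0.97). For Mt2 they were Rlf (0.98), Dgat2 (0.98) and Tada2b (0.98). These values lean on SAH mouse 3, and without it r was 0.89 between Mt1 and Mt2 and between 0.75 and 0.88 for the other 5. The genes most like Slc39a8 were Piezo1 (r = 0.97, rho = 0.96), which encodes a mechanically gated ion channel, Sertm1 (0.96) and Lamb2 (0.96), which encodes a laminin chain of basement membranes. Without SAH mouse 3 these 3 were at 0.97, 0.96 and 0.93. In SAH against control, the log2 fold change was 0.59 for Piezo1 (edgeR adjusted p = 0.0462) and 0.56 for Lamb2 (edgeR adjusted p = 0.00629), while Sertm1 had 0.14 and did not pass (edgeR adjusted p = 0.158). These 3 genes were picked for following Slc39a8 over the same mice, so their group differences are no separate evidence.

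Slc39a14 was most like Nostrin (r = 0.99), which encodes a protein that binds the nitric oxide synthase of endothelium, Lpin1 (0.98) and Synm (0.96). Slc30a1 was most like Phf12 (0.96), Lrrc8d (0.95) and Slc20a2 (0.94). Slc30a3 was most like Trim30a, Rnase4 and Dnaja4 (0.94 each), and Slc30a10 was most like Tacr3 (0.99), Dpysl3 (0.98) and Kif21b (0.98). Mt3 was most like Fam133b (0.92), Parvg (0.91) and Slc9a3r1 (0.90). Leaving out the 2 mice farthest from the median of the zinc gene took r to 0.50 for Mt1 with Pop4 and to 0.44 for Slc30a3 with Dnaja4, the lowest of the 24 pairs.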

How the data were processed

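The authors aligned 50-base read pairs from ribosomal RNA-depleted, stranded libraries to mm9 with STAR and counted with featureCounts 1.6.2, keeping uniquely mapped reads that overlapped no more than 1 gene. The deposited values are whole-number counts per gene name, without normalization. The 10 files hold 19743388 to 27254655 counts each. Limits taken from a count cover counting error only.

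CPM (after TMM), CPM per kilobase and log2 CPM (prior count 2) were computed here. edgeR 4.0.16 (R 4.3.3) was run on all genes with filterByExpr (minimum count 10, minimum total 15), the quasi-likelihood test, Benjamini-Hochberg adjustment and a threshold of 0.10, after the study's FDR. DESeq2 1.42.0 was an alternative. SAH mice were compared with pooled Sham and Naive mice, and pairwise contrasts came from 1 fit of 3 groups. Ratios were tested by permuting the mice over all 210 splits (2-sided, exact), where the smallest possible p is 0.0048. The edgeR step was tested on simulated data. Other alternatives were scaling, the low-count filter, either control group alone and each mouse left out.

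The zinc genes and all gene lists were chosen with earlier results of these data known. Genes named are the zinc genes, Mtf1, up to 4 called genes per list by p, untested relatives, Slc39a3 and the list exceptions (chosen after their values were seen), and 3 genes most like each zinc gene. No 2 libraries were alike enough to be a duplicate. The labels do not say more of how mice differ within a group. Promoters came from RefSeq.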

Additional observations from a re-analysis of the deposited data

Results flagged for a closer look

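Mt2 in SAH mouse 3, at 242 CPM, stood apart from the other 3 SAH mice, which had 98.4, 111 and 89.4 CPM, by a gap that is large for the range of a group of 4 mice. Mt1 in the same mouse, at 270.3 CPM against 133, 141 and 112 CPM, came close to the same limit without passing it. In all, 22 groups of values were examined in this way, and chance alone is set to mark about 1 group in 20.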

How the results depend on the processing

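The count of changed zinc genes, 1 in SAH against control mice, was 0 with Sham mice alone as control, 0 with Naive mice alone and 0 at an adjusted p of 0.05, and ranged from 0 to 2 when each mouse was left out in turn. It was 0 without SAH mouse 3, SAH mouse 4, Sham mouse 5, Naive mouse 8 or Naive mouse 10 and 2 without SAH mouse 2 (Slc30a3 and Slc39a8), and it was 1 in the other 11 alternatives. Of the other zinc family genes, 0 were called by edgeR and 1 by DESeq2 (Slc39a3). The counts against Sham, against Naive and between Sham and Naive stayed at 0 in all 18 alternatives each. The log2 fold changes of Mt1 and Mt2 reversed without SAH mouse 3 (-0.20 and -0.13), and leaving out mice gave -0.20 to 0.29 for Mt1 and -0.13 to 0.46 for Mt2. Slc30a1 reversed in 6 of 19 alternatives, with 0.018 against Sham mice alone and a range of -0.13 to 0.065 with each mouse left out. The log2 ratio of Mt2 to Mt1 no longer passed with Sham mice alone (0.13, exact permutation test, adjusted p = 0.171) or Naive mice alone (0.12, adjusted p = 0.429), where 35 splits are possible, and was 0.073 to 0.17 with each mouse left out. The ratio of Mt2 to Mt3 was -0.14 to 0.33 in the same way. The ratio of Slc39a14 to Slc39a8 passed in all 13, which adds little because its groups did not overlap. Where a value changed for another reason than fewer mice, the cause was not tested. No paired analysis was possible because the groups share no replicate numbers in the labels. Slc39a8 had 57 to 122 counts per mouse, the fewest of the 8 genes, which limits its precision.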
